A study of Caenorhabditis elegans with 2 samples.

Results

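Vesicle traffic and vacuolar ATPase genes were taken as the 115 protein-coding genes whose symbol starts with rab, sec, vps, snx, arf, arl, syx or vha followed by a hyphen, of 19973 protein-coding genes on the 6 chromosomes. They comprised 20 rab, 19 sec, 31 vps, 7 snx, 3 arf, 6 arl, 9 syx and 20 vha genes. The genes were selected by name, but the set and its comparison were selected on peak calls already known from these data, so all shares of bound genes stand as descriptions with no test. The label holds for most members, although the sec names also cover the SEC61 channel and a signal peptidase of the endoplasmic reticulum, and some arl genes act mainly in cilia.

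The data came from whole Caenorhabditis elegans at the L4 larval stage, 49 hours old, grown from first-stage larvae synchronised by bleaching and starvation. The 2 biological replicates formed 1 group, strain RW12211, in which CRISPR insertion put the allele st12211[ceh-20::TY1::EGFP::3xFLAG] on chromosome III. Chromatin was precipitated with an antibody to GFP and sequenced. All animals carried the tag, no untagged or input library was analysed here, and material from whole animals does not tell which cells held CEH-20 on a gene.

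CEH-20 is a homeodomain protein of the PBX family and acts in the worm together with Hox proteins and the Meis-type protein UNC-62. Membrane traffic moves proteins in vesicles between the endoplasmic reticulum, the Golgi, endosomes, lysosomes and the cell surface. Rab, Arf and Arl GTPases mark the membranes, coats shape the vesicles, tethers and syntaxins let them fuse, and ESCRT complexes sort cargo into endosomes for degradation. The vacuolar ATPase, built from a cytosolic V1 sector and a membrane V0 sector, pumps protons into these compartments.

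The strongest peak at any member lay upstream of sec-61.G and held the 8-mer AGACGCAG, as did 4 other member peaks. This 8-mer had been picked as a leading word on these same data, so its frequency is no finding. It was in 15.6% of the 32 member peaks and in 7.66% of conservative peaks in the window of any gene, terms defined below. The sequences below are the summit with 50 bp on each side, from the RefSeq assembly WBcel235 (the same as ce11), 5′ to 3′ on the strand of the member. The first 5 are all the member peaks with that 8-mer, the next is the only member peak with the PBX-Hox composite TGATNNAT, and the last 2 are strong peaks that hold the repeat GAGAGA without the 8-mer. Capitals mark any letters of the 9 motifs searched on either strand, and overlapping motifs run together. Where the 9-mer GAGACGCAG is present, its start is also the reverse complement of CGTCTC, so both motifs share those letters.
sec-61.G (chrV:10897320-10897420, minus strand): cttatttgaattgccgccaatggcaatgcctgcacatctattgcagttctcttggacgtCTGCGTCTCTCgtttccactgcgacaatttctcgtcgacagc
sec-24.1 (chrIV:11566333-11566433, minus strand): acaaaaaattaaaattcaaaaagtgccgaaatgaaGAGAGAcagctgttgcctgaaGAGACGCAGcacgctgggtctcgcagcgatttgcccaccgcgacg
sec-3 (chrX:3099959-3100059, minus strand): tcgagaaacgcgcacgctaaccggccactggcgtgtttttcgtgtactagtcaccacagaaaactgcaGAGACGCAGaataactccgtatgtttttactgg
vha-12 (chrX:4190727-4190827, plus strand): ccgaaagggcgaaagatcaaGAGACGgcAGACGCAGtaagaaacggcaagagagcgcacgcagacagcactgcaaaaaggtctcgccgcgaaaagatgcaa
vps-36 (chrV:10961694-10961794, minus strand): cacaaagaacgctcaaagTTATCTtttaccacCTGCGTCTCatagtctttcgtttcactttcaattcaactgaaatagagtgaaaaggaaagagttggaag
rab-3 (chrII:5725245-5725345, minus strand): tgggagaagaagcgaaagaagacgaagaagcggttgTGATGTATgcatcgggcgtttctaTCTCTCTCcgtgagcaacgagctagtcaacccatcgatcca
vha-8 (chrIV:6790571-6790671, plus strand): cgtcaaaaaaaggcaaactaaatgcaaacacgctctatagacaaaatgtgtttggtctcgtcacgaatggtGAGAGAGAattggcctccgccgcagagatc
vps-60 (chrV:8606452-8606552, minus strand): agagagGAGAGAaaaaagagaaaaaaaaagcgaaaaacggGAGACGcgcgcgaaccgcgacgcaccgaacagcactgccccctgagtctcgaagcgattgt

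Membership in a peak list was read as follows. A member counted as bound when the summit of a conservative peak fell within a window reaching 2000 bp upstream and 500 bp downstream of any of its transcript starts. The conservative list held 2522 peaks. The base was every gene with a summit of the larger ranked list, of 56499 peaks, in that window. The conservative list keeps peaks past a threshold on the irreproducible discovery rate (IDR), which scores whether a peak ranks alike in a pair of inputs, and the ranked list applies no such threshold.

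Of the 115 members, 102 had a ranked summit in their window and 29 of these were bound (28.4%, exact 95% interval 19.9 to 38.2). The same share over all protein-coding genes was 14.5%, or 1912 of 13157. The remaining 13 members had no ranked summit and were not bound. The 29 members drew on 32 distinct peaks, since vha-1 and vha-2 shared 1 and vps-4, vps-25 and vps-60 had more than 1 each. All intervals given cover counting error over genes or peaks only.

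Bound genes made up 7 of 17 rab genes (41.2%, exact 95% interval 18.4 to 67.1), 7 of 17 sec genes (41.2%, 18.4 to 67.1), 9 of 28 vps genes (32%, 15.9 to 52.4) and 5 of 19 vha genes (26.3%, 9.15 to 51.2). Among syx genes 1 of 6 was bound (16.7%, 0.421 to 64.1). None of 7 sorting nexins, 3 arf genes or 5 arl genes was bound, which allows shares of up to 41%, 70.8% and 52.2% (upper bounds of the exact 95% intervals). The intervals of all families overlap, so these numbers of genes do not resolve an order of families.

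**Figure D1:**
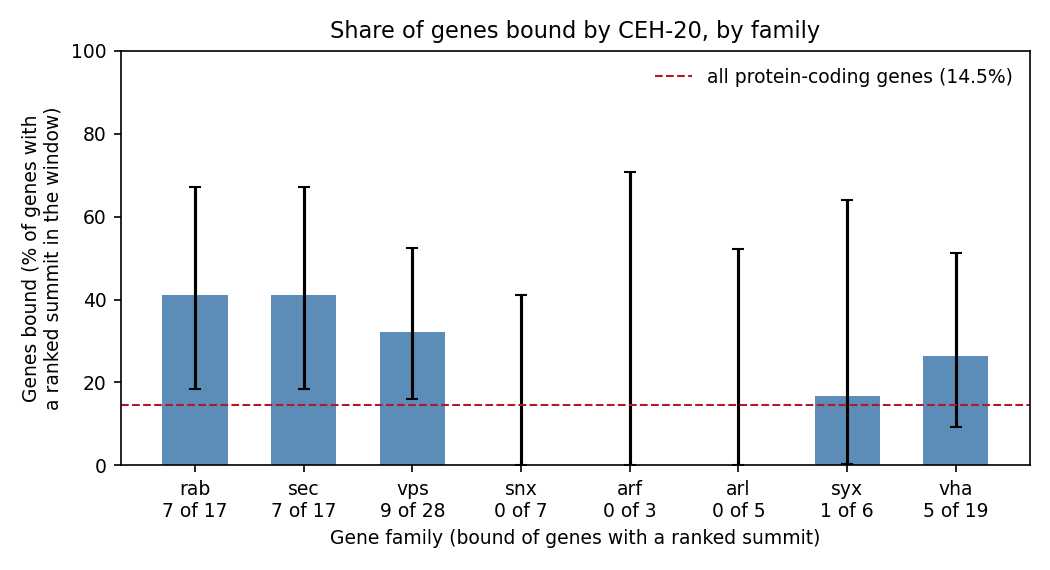
Share of genes bound by CEH-20 in each family, in percent of the genes with a ranked summit in their window; bars are the shares, error bars the exact 95% binomial intervals, and the dashed line the share over all protein-coding genes. The rab and sec families stand highest at 41.2%, the snx, arf and arl families are at 0, and the intervals overlap.

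The choice of list changed how many members were bound. The larger thresholded list, of 2632 peaks, gave 25 of 102 members (24.5%) against 14.9% of all genes, all of them among the 29. The list of replicate 1 alone gave 17 of 102 (16.7%) against 7.89% of all genes, and that of replicate 2 alone gave 23 (22.5%) against 9.53%, with arf-1 as the only member not among the 29. When a summit was given only to the gene with the nearest transcript start, 16 of 89 members (18%) were bound against 11.7%. Within 500 bp on each side of a start it was 15 of 83 (18.1%) against 11.5%. No intervals are given for the shares by nearest start and within 500 bp, so an excess over all genes is not resolved there.

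Some family shares depended on 1 library or on the window. The rab share was 17.6% (3 of 17) with the list of replicate 1 alone and 35.3% with that of replicate 2 alone, where all genes were at 7.89% and 9.53%. Within 500 bp of a start it was 7.69% (1 of 13), below the 11.5% of all genes there, and by the nearest start it was 20% (3 of 15) against 11.7%. The vha share was 10.5% (2 of 19) with the list of replicate 1 alone and 15.8% (3 of 19) with that of replicate 2 alone. With the larger thresholded list it was also 15.8%, near the 14.9% of all genes. The vps share was 19% (4 of 21) within 500 bp. The bound syx gene was in the list of neither replicate.

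Subunits of the SEC61 channel, through which new proteins enter the endoplasmic reticulum, were bound in 3 of 3 genes. The complexes named here and below were assigned from textbook roles after the calls had been seen. At sec-61.G (WBGene00001303), the gamma subunit, the peak on chromosome V at 10897274 to 10897462 had a signal of 344, which is the strength the authors gave to the peak on a scale of their own, and rank 35 in the conservative list. In the replicates' own ranked lists it stood at 195 and 155 (replicates 1 and 2). Its summit lay between genes, 227 bp upstream of the sec-61.G start, and no other protein-coding start was nearer.

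At sec-61.B (WBGene00021427), the beta subunit, a peak of 205 on chromosome IV (2389075 to 2389210) had signals of 114 and 91.6 in the replicates. Its summit lay 460 bp upstream of sec-61.B but only 310 bp upstream of trap-3, which codes for a subunit of the translocon-associated complex. At sec-61.A (WBGene00013311), the alpha subunit that forms the pore, the peak (chromosome IV, 14824865 to 14825180) was weaker, at 70.6, with 38.9 and 33.5 in the replicates. Its summit was 241 bp inside the transcript, within the 5′ UTR, and 656 bp upstream of the ribosomal protein gene rps-18. The beta and gamma subunits were in the lists of both replicates, whereas the alpha subunit was in neither.

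The exocyst tethers secretory vesicles to the plasma membrane. Of its genes with a sec name 3 of 5 were bound (60%, exact 95% interval 14.7 to 94.7), against 14.5% of all genes. At sec-15 (WBGene00016188) a peak of 257 on chromosome X (8835987 to 8836147) stood at 124 and 134 in the replicates. Its summit lay 317 bp upstream of sec-15, in the 5′ UTR of C28G1.2 16 bp from that gene's start, and 81 bp from a tRNA gene. It was the only member peak within 200 bp of a tRNA gene. At sec-6 (WBGene00017284) the peak had a signal of 116 (51.7 and 72.4 in the replicates) and lay 1122 bp upstream, nearer to the starts of F09E5.11 (243 bp) and bmy-1 (265 bp). At sec-3 (WBGene00018703) the peak of 84.6 (45.4 and 35.3) lay 157 bp upstream of the start with no other gene in reach. Of the other exocyst genes with a sec name, sec-5 and sec-10 were not bound, with highest ranked signals of 38.1 and 31.9, and sec-8 had no ranked summit.

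The COPII coat buds vesicles from the endoplasmic reticulum. Of the sec-named genes for this coat and its assembly, 1 of 6 was bound (16.7%, 0.421 to 64.1), against 14.5% of all genes. This was sec-24.1 (WBGene00004755), a cargo-binding subunit, with a peak of 116 on chromosome IV (11566225 to 11566540), 189 bp upstream of its start and in no other gene's window. Its replicate signals were 61.7 and 49.0. The related sec-24.2 reached 42.8, sec-23 reached 27.3, and sec-12, sec-16A.1 and sec-16A.2 reached 17.1, 27.5 and 36.8 in the ranked list. The signal peptidase gene sec-11 and the SNARE genes sec-20 and sec-22 were not bound either, at 27, 27 and 42.8. Export genes without a sec name, among them the bound npp-20, are described below.

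Bound Rab genes included those of early endosomes, late endosomes and recycling. At rab-7 (WBGene00004271), which marks late endosomes and lysosomes, a peak of 209 on chromosome II (11967642 to 11967749) stood at 118 and 80.8 in the replicates. Its summit lay 781 bp upstream of rab-7, 168 bp upstream of W03C9.5 and 925 bp upstream of mex-1, a germline gene for an RNA-binding protein. At rab-5 (WBGene00004268), of early endosomes, the peak of 87.2 lay 703 bp upstream, with replicate signals of 32.2 and 59.4, the lowest ratio between replicates among member peaks (0.542). At rab-11.1 (WBGene00004274), of recycling endosomes, the peak of 103 (50.3 and 53.6) lay 620 bp upstream and nearer, at 361 bp, to the ribosomal protein gene rpl-7. At rab-10 (WBGene00004273), which acts in recycling in the intestine, the peak of 81.4 (40.2 and 30.8) lay 1208 bp upstream, and 1191 bp upstream of knl-2, a kinetochore gene.

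The other bound Rab genes were rab-3, rab-14 and rab-18. At rab-3 (WBGene00004267), of synaptic vesicles, the peak of 79.1 (33.3 and 45.7 in the replicates) lay in an intron of the gene, 565 bp upstream of a start, on chromosome II at 5725137 to 5725452. At rab-18 (WBGene00004277), which acts at the endoplasmic reticulum and lipid droplets in other animals, the peak of 135 (56.9 and 77.4) had its summit 36 bp inside the transcript, within the 5′ UTR. It also fell in the windows of kbp-4 (162 bp) and of the polarity gene par-2 (662 bp). At rab-14 (WBGene00004276) the peak of 125 (49.7 and 77.8) lay 1033 bp upstream and nearer, at 301 bp, to nipi-3, a Tribbles-like kinase gene. Of the 10 Rab genes that had a ranked summit and were not bound, rab-6.2 was highest at 53.3 and rab-37 lowest at 17.4.

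ESCRT genes made up most of the bound vps genes. Among genes with vps names, ESCRT-II was bound in 3 of 3. ESCRT-III with its ATPase was bound in 3 of 6 such genes and ESCRT-I in 1 of 2. The bound ESCRT gene tsg-101, without a vps name, is described below. In ESCRT-II, vps-25 (WBGene00012193) had peaks of 140, 78.0 and 30.8 on chromosome I near its starts. The first, 15 bp inside the transcript and within its 5′ UTR, overlapped the weakest one, and its replicate signals were 83.5 and 67.6. At vps-22 (WBGene00016167) the peak of 115 (46.7 and 70.1) lay 641 bp upstream, and 90 bp upstream of C27F2.9. At vps-36 (WBGene00008919) the peak of 86.5 (42.4 and 38.2) lay 1075 bp upstream on chromosome V at 10961586 to 10961901, with no other gene in reach.

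In ESCRT-III, which pinches off vesicles into the endosome, vps-60 (WBGene00018290) had a peak of 156 on chromosome V (8606344 to 8606659), 374 bp upstream of its start, with 78.0 and 72.2 in the replicates. A second peak of 72.8 lay 1446 bp upstream of vps-60 and 226 bp upstream of smk-1, a gene for a phosphatase subunit. At vps-32.1 (WBGene00016961) the peak of 155 (79.6 and 74.0) lay 644 bp upstream, and 409 bp upstream of icd-1, a gene of the nascent polypeptide-associated complex. The ATPase gene vps-4 (WBGene00021334), whose product takes ESCRT-III apart, had peaks of 132 at 258 bp and 141 at 1411 bp upstream. The stronger was nearer, at 174 bp, to the G protein gene gsa-1. Its replicate signals were 54.7 and 63.0, while those of the weaker were 74.6 and 59.2, so the replicates' own lists put the peak nearer to vps-4 higher in replicate 1 and lower in replicate 2. The ESCRT-III genes vps-2, vps-20 and vps-24 were not bound, at 22.3, 34.4 and 21.8. In ESCRT-I, vps-37 (WBGene00016990) was bound at 51.9 (29.6 and 33 in the replicates) and vps-28 reached 39.1.

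Among tethers with vps names and retromer, 2 genes were bound. Of 7 HOPS and CORVET genes, which tether endosomes and lysosomes, only vps-39 (WBGene00011625) was bound (14.3%, 0.361 to 57.9, against 14.5% of all genes). Its peak on chromosome V (14038787 to 14038945) was among the strongest of all members, at 235 with 132 and 107 in the replicates, and lay 508 bp upstream of vps-39 alone. The other 6 reached between 13.7 (vps-41) and 42.5 (vps-33.2). Of 5 GARP and EARP genes, for tethers of vesicles from endosomes, only vps-51 (WBGene00015176) was bound (20%, 0.505 to 71.6). Its peak of 111 (47.5 and 57.7) lay 242 bp upstream of vps-51 and 176 bp upstream of lin-35, the worm's retinoblastoma gene. None of the retromer genes vps-26, vps-29 and vps-35, which return cargo from endosomes, was bound, at 43.9, 15.1 and 31.1.

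The only bound syntaxin gene with a syx name was syx-5 (WBGene00006373), which in other animals acts between the endoplasmic reticulum and the Golgi. Its peak of 78.1 (42.3 and 33 in the replicates) was in the list of neither replicate. It lay 338 bp upstream of syx-5 and 181 bp upstream of F55A11.1, and the sequence within 50 bp of its summit had the lowest share of G and C among member peaks (27.7%). Syntaxins without a bound call reached from 25 (syx-2) to 42.8 (syx-18), and syx-4, syx-7 and syx-17 had no ranked summit.

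The vacuolar ATPase was bound at subunits of both sectors. Among genes with vha names, 3 of 9 of V1 were bound (33.3%, exact 95% interval 7.49 to 70.1). Of V0 it was 2 of 8 (25%, 3.19 to 65.1), where 14.5% of all genes were bound. Neither accessory gene (vha-19 and vha-20) was bound. Both V0 calls with vha names rest on 1 peak. No V0 gene with a vha name was bound with the larger thresholded list or with the list of either replicate alone. The V0 gene unc-32, without a vha name, had another peak (208, described below) in the lists of both replicates. In V1, vha-8 (WBGene00006917), of the stalk subunit E, had the strongest peak, 176 on chromosome IV (6790559 to 6790642) with 82.0 and 94.6 in the replicates. It lay 453 bp upstream of vha-8 and 133 bp upstream of C17H12.2. The catalytic core genes vha-13 (WBGene00013025, subunit A) and vha-12 (WBGene00006921, subunit B) had peaks of 113 (45 and 63.3) and 90.9 (45.2 and 51.5), each with no other gene in reach. The first lay 545 bp upstream of vha-13 in the 3′ UTR of cept-2, the second 317 bp upstream of vha-12 on chromosome X at 4190619 to 4190934. In V0, vha-1 (WBGene00006910) and vha-2 (WBGene00006911), genes of the proteolipid ring, shared a peak of 81.1 (45.7 and 36.6) on chromosome III at 9780683 to 9780998. It lay 413 bp upstream of vha-1, 1323 bp upstream of vha-2 and 487 bp upstream of sqv-3, a glycosyltransferase gene.

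The threshold lay between members with near scores. The unbound members with the highest IDR-scaled score, whose maximum is 1000, were vha-3 (proteolipid, score 780, signal 55.0), vha-9 (V1 subunit F, score 663, signal 63.7) and sec-16A.2 (score 625, signal 36.8). At vha-3 the replicates gave 27.9 and 29.7, and at vha-9 43.8 and 19.7. The score is the highest of any ranked peak in the window. The signal and the replicate values are those of the strongest ranked peak there, which may be another peak. Just inside the threshold, vps-37 had a score of 886, and the lowest score of a peak in the conservative list was 830. Signal alone did not set the call, since vha-9, vha-11 (60.8), vha-3, rab-6.2 and vha-15 (52.6) all exceeded the 51.9 of vps-37. At vha-11 no ranked peak of replicate 1 overlapped the pooled one, and at vha-15 none of replicate 2 did. The highest ranked signal of the 19 vha genes had a median of 48.8 and was never under 28.0, while the median was 48.2 for rab and 46.1 for arf genes, 38.8 over all 102 members and 32 over all 13157 genes. The only vha gene with no ranked summit was vha-16.

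**Figure D2:**
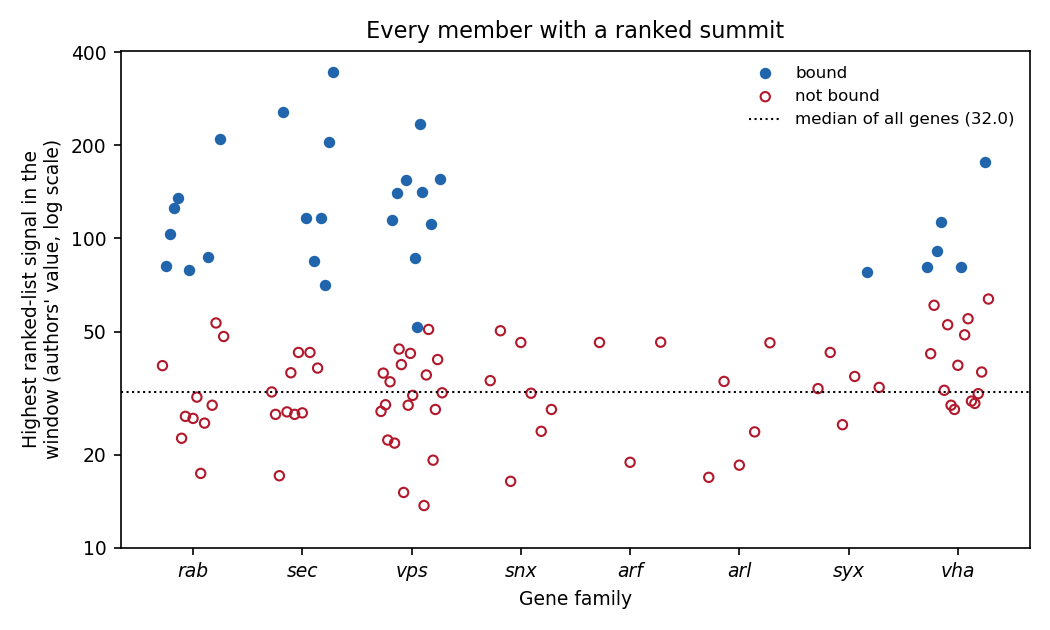
Highest signal of any ranked peak in the window of each of the 102 members with one, by family, on a log scale; filled points are bound members, open points are not, and the dotted line is the median of all genes. The 73 open points run from 13.7 to 63.7 and the 29 filled ones from 51.9 to 344, so the ranges overlap near the threshold.

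Signals of the bound members had a median of 115 and ran from 51.9 at vps-37 to 344 at sec-61.G. Over all 1912 bound genes the median of the strongest window peak was 90.1. The strongest peak was in the top 25% of the conservative list by signal for 15 of the 29 members (51.7%), against 32.6% of all bound genes. All 32 member peaks overlapped a ranked peak in each replicate. Of these, 17 were higher in replicate 1, and the ratio of replicate 1 to replicate 2 had a median of 1.08 and ran from 0.542 to 1.46. Over 2476 conservative peaks with both values the median ratio was also 1.08. Depths of the libraries were not known, so this ratio is not a measure of change.

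In the thresholded lists of the replicates, the strongest peak was found in both for 17 of the 29 members (58.6%), against 40.5% of all bound genes. For 5 members (rab-3, rab-5, rab-11.1, vha-13 and vps-25) it was in that of replicate 2 only. For 7 members (rab-10, sec-3, sec-61.A, syx-5, vha-1, vha-2 and vps-37) it was in neither, and these 7 rest on the pooled calls. No member had it in the list of replicate 1 only, as 10.9% of all bound genes did. Over the member peaks it was 0 of 32, which allows up to 10.9%, against 12% of conservative peaks in a gene window. The numbers are small, and this limit lies close to both shares.

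**Figure D3:**
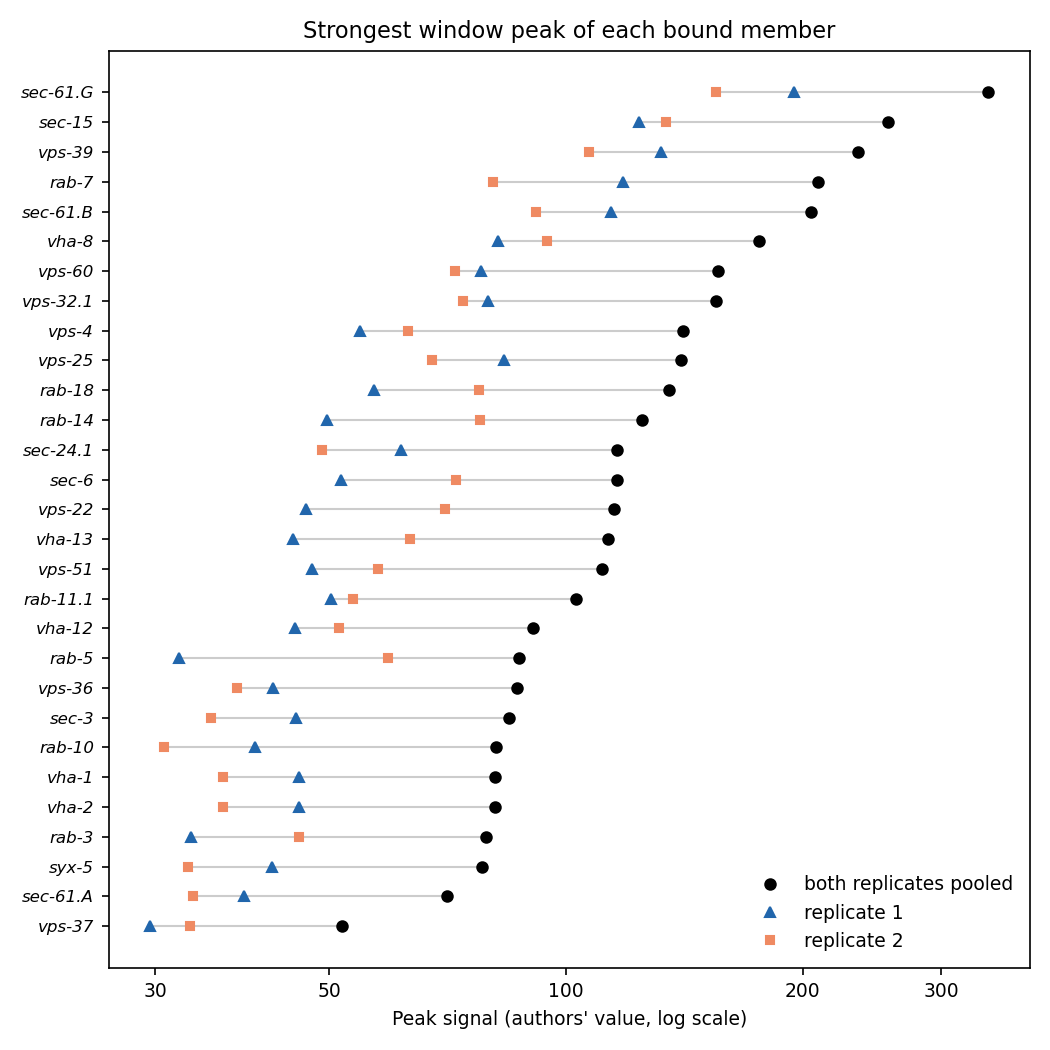
Signal of the strongest window peak of each of the 29 bound members on a log scale, from the pooled list (circles) and from the overlapping peak of the ranked list of replicate 1 (triangles) and replicate 2 (squares). The order by pooled signal runs from vps-37 at 51.9 to sec-61.G at 344, and the replicates lie below the pooled value for every member.

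Most member peaks lay upstream and were shared with a neighbour. The strongest peak lay upstream of the start for 26 of the 29 members (89.7%), as for 91.6% of all bound genes, at a median distance of 508 bp against 456 bp. Summits of the 32 peaks were intergenic in 25 cases, in a 5′ UTR in 4, in an intron in 2 and in a 3′ UTR in 1. The strongest peak also fell in the window of a further protein-coding gene for 22 members (75.9%), against 53.2% of all bound genes. Only 16 of the 29 members (55.2%) had a window peak nearer to their own start than to any other, against 71.8% of all bound genes. For the other 13, among them rab-7, sec-15, sec-61.B and vha-8, the data do not tell which of the neighbours a peak belongs to. The windows had a median length of 2501 bp both for members and for all genes with a ranked summit, and members held a median of 3 ranked summits against 2.

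**Figure D4:**
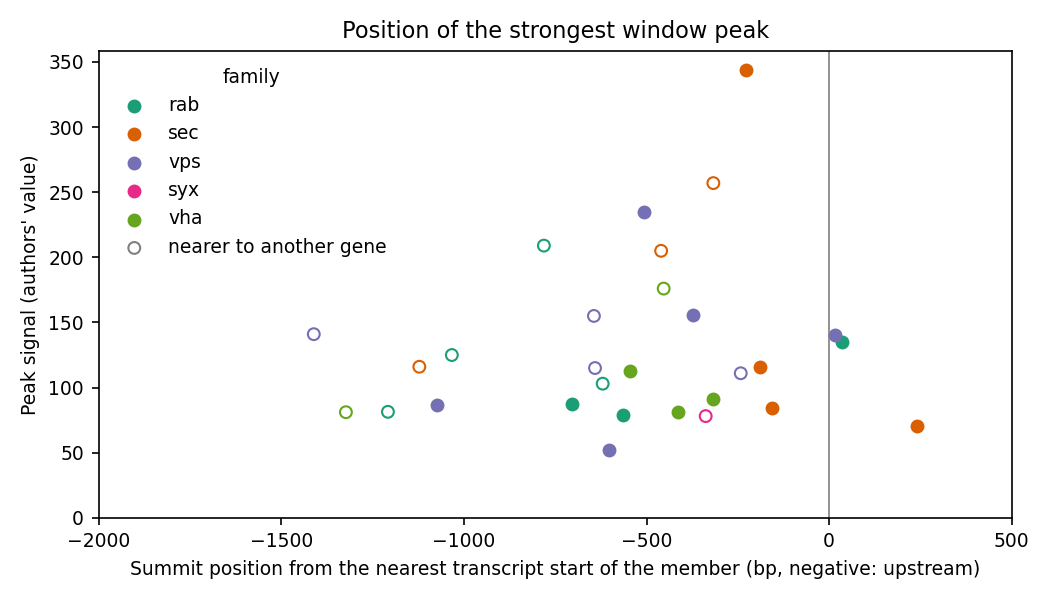
Signal of the strongest window peak of each bound member against the distance of its summit from the nearest transcript start of that member, in bp, coloured by family; filled points are peaks nearest to the member's own start and open points are nearer to another gene. Of 29 points, 26 lie upstream, and the strongest, sec-61.G at 344, lies 227 bp upstream.

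Motifs at the 32 member peaks were counted within 50 bp of the summit on both strands, as in the sequences shown above. The PBX-Hox composite TGATNNAT was present only in the rab-3 peak, 7 bp from the summit (3.12%, exact 95% interval 0.0791 to 16). It was in 9.33% of the 1619 conservative peaks in any gene window, 7.31% of the ranked peaks outside the list, and 7.96% of windows of the same length just upstream of all gene starts. The PBX-Meis composite TGATTGAC was in none, which allows up to 10.9%, against 0.679% in gene windows. The E-box CACGTG is the core of a site known from lysosomal genes in the worm and other animals. It was in none of the 32 either, which allows up to 10.9%, against 4.57% of conservative peaks in gene windows. The longer TCACGTGA and the AP-1-like TGACTCA were also in none, with the same limit. Of conservative peaks in gene windows 0.556% and 0.988% held them. The GATA site AGATAA was in 1, at vps-36 (3.12%), against 5.56%. Within 100 bp of the summit, CACGTG was in 1 peak and TGACTCA and AGATAA in 2 each.

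The repeat GAGAGA was in 10 of the 32 peaks (31.2%, exact 95% interval 16 to 50) and in 21.9% of conservative peaks in gene windows, 7.15% of the other ranked peaks and 8.86% of upstream windows. CGTCTC was in 8 (25%, 11.5 to 43.4), where those shares were 16%, 4.28% and 3.90%. AGACGCAG was in 5 (15.6%, 5.28 to 32.8), where they were 7.66%, 1.20% and 1.26%. CGTCTC and AGACGCAG had been picked as leading words on these same peaks, so their frequency in the list is no finding. The 5 members with AGACGCAG were sec-61.G, sec-24.1, sec-3, vha-12 and vps-36, with signals from 84.6 to 344, and the word lay 7 to 19 bp from the summit. In all but vha-12 it was part of GAGACGCAG, a word noticed in these sequences and present in 6.58% of all conservative peaks and 1.03% of upstream windows. Of these 5 members, 4 had no other gene in reach and sec-61.G was the nearest start. At vha-12 a separate GAGACG preceded the 8-mer. None of the 9 motifs was in 18 of the 32 peaks, including those at rab-7, sec-61.B and vps-39.

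**Figure D5:**
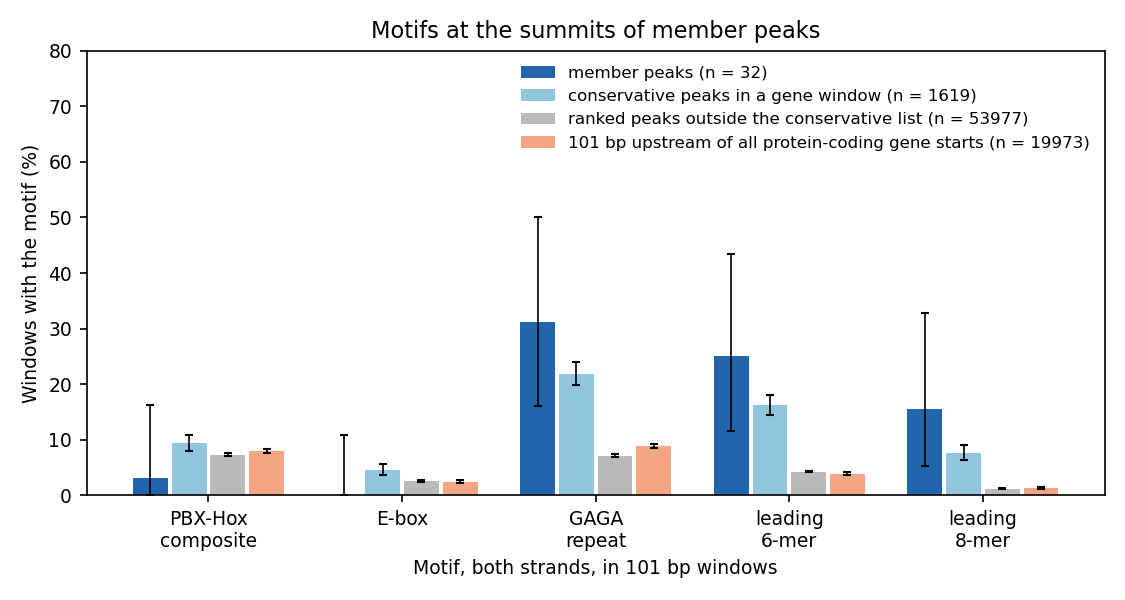
Share of windows, 50 bp on each side of the summit or as long just upstream of a start, holding each of 5 motifs at member peaks, at all conservative peaks in gene windows, at ranked peaks outside the conservative list and just upstream of all gene starts, with exact 95% binomial intervals. GAGAGA and the leading words are at 15.6% to 31.2% of member peaks, the PBX-Hox composite is at 3.12% and the E-box at 0.

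Other genes of the same pathways, from a list of coats, adaptors, SNAREs, endosomal, lysosomal and autophagy genes without the 8 name stems, were counted in the same way. Of 119 with a ranked summit 33 were bound (27.7%, exact 95% interval 19.9 to 36.7), against the 14.5% of all genes. With the list of either replicate alone 16.8% were bound, where all genes were at 7.89% and 9.53%. In windows of 1000 bp upstream and 250 bp downstream it was 16.5% against 13.2% of all genes. For 14 of the 33 the strongest peak was nearer to the start of another gene. The strongest were epg-9 (346), an autophagy gene, and epn-1 (328), the epsin gene of clathrin-mediated uptake, followed by unc-32 (208), which codes for the a subunit of V0. The unc-32 peak lay 1365 bp upstream of that gene and 119 bp upstream of lin-9.

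Autophagy genes were bound in 9 of 23, namely epg-9, lgg-2 (165), atg-7 (156), lgg-1 (131), unc-51 (122), sqst-1 (105), atg-18 (87.0), atg-3 (64.1) and bec-1 (58.9). The atg-3 peak lay 5 bp from the start of rbm-39, and those of atg-7 and sqst-1 were also nearer to another gene (klc-1 and mrpl-51). Both lgg genes code for Atg8-family proteins of the autophagosome, and unc-51 codes for the kinase that starts its formation. Lysosome genes were bound in 6 of 23 (26.1%, 10.2 to 48.4). Besides unc-32 they were lmp-1 (106), a membrane protein gene, hlh-30 (79.6), gba-3 (69.4), lmtr-3 (61.4) and the protease gene cpl-1 (54.9). The gba-3 and lmtr-3 peaks were nearer to the starts of epic-1 and mboa-2. The hlh-30 gene codes for the worm's TFEB, a regulator of lysosomal and autophagy genes, and its peak lay 187 bp upstream.

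Clathrin and adaptor genes were bound in 4 of 16 (25%, 7.27 to 52.4), which were epn-1, dpy-23 (160), apb-1 (103) and the dynamin gene dyn-1 (83.2). Endosomal genes were bound in 6 of 21 (28.6%, 11.3 to 52.2), which were mtm-3 (155), rme-4 (122), ccz-1 (102), lst-4 (73.5), gdi-1 (72.3) and rme-1 (68.4). Of these, gdi-1 codes for the factor that extracts Rab proteins from membranes, and the peaks at gdi-1, lst-4 and ccz-1 were nearer to coq-3, ccar-1 and tag-65. SNARE and fusion genes were bound in 3 of 16 (18.8%, 4.05 to 45.6), which were unc-64 (88.4), the syntaxin of synapses, vti-1 (74.1) and nsf-1 (71.6). Export from the endoplasmic reticulum had 3 of 9 (33.3%, 7.49 to 70.1) in ile-2 (120), tmed-10 (110) and npp-20 (65.9). The COPI coat had 1 of 6 (16.7%, 0.421 to 64.1) in copb-1 (142), and the added ESCRT genes 1 of 3 (33.3%, 0.84 to 90.6) in tsg-101 (62.6). Of these peaks, that at npp-20 lay 18 bp from the start of hxk-3 and that at copb-1 146 bp from Y25C1A.8, while ile-2, vti-1 and tsg-101 had trap-2, mrps-7 and unc-33 nearer. The list also held 3 further genes, grouped as exocyst genes, of which 2 had a ranked summit and none was bound.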

How the data were processed

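CEH-20 was mapped by ChIP-seq in 2 biological replicates, and the deposited peak lists were used as given. Their assembly is ce11, per the text deposited with them. The authors deposited lists ranked by IDR and lists kept after an IDR threshold, per the same text, for each replicate and for both together. The deposited score of a peak is scaled by IDR up to 1000. The deposited signal is the authors' strength of a peak, with no scale stated. Lists also hold the authors' −log10 q-value and the offset of the summit. The aligner and peak caller are not given in the sources used here. No list holds read counts, so depth is unknown. The 4 columns of input signals in the ranked lists of both libraries have no header and were not used.

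Genes were those of Ensembl release 115 on WBcel235, the same assembly as ce11, and sequence came from RefSeq. Matching of names used Ensembl symbols; RefSeq alone gave a matching symbol to C18E9.2, C25H3.11 and C17E4.6, of which C17E4.6 (vps-72) was bound, and these were left out. Summits were assigned to windows around transcript starts, and overlap between lists meant at least 1 bp. A replicate's value at a pooled peak was the highest signal of the overlapping peaks in that replicate's ranked list. Motifs were matched on both strands. Of 144 other pathway genes written down, 141 matched a symbol.

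The members, the lists and the motifs were chosen with earlier results of these data known, and the complexes were assigned after the calls were seen. The genes named were every bound member, every bound gene of the other list, the bound member with the lowest score and the 3 unbound members with the highest, and unbound members within their family. Unbound members named for a signal above that of vps-37 were chosen after their values were seen. No test was made, since the calls helped to choose the set, and both samples belong to 1 group. Exact 95% intervals are Clopper-Pearson. The steps were tested on simulated data, where 200 of 200 planted summits and 100 of 100 planted 8-mers were read as planted. Alternatives were other lists, windows, assignments, bases, overlaps and motif widths. Tables were handled with pandas 2.3.3 and numpy 2.4.6 under Python 3.11.15, intervals came from scipy 1.17.1, and figures from matplotlib 3.10.9.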

Additional observations from a re-analysis of the deposited data

How the results depend on the processing

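The share of members bound, 28.4%, moved outside its own interval under 3 of 15 alternatives. It was 18% by the nearest transcript start (all genes 11.7%), 18.1% within 500 bp of a start (all genes 11.5%), and 16.7% without replicate 2 (all genes 7.89%). Without replicate 1 it was 22.5% (all genes 9.53%), inside the interval. The rab share of 41.2% fell to 7.69% within 500 bp, below the 11.5% of all genes, and to 17.6% without replicate 2. Without replicate 1 the rab share was 35.3%, inside its interval. The single bound syx gene, syx-5, was lost, giving 0%, among peaks at or above the median signal and by the nearest start. It was also lost without either replicate, where both values were 0%. The AGATAA share was 0% within 25 bp of the summit. The share of the other pathway genes, 27.7%, was 16% among peaks at or above the median signal (all genes 8.53%), 16.8% without either replicate (7.89% and 9.53%), 16.5% in windows reaching 1000 bp upstream and 250 bp downstream (13.2%), 16.8% within 500 bp (11.5%) and 17.9% by the nearest start (11.7%). The vha share of 26.3% was between 10.5% and 15.8% with 1 replicate left out and 15.8% with the larger list (all genes 14.9%), inside its wide interval. The causes were not tested, although the stricter windows and lists hold fewer peaks by construction. The other 164 of 180 values, over all families, motifs, replicate overlaps and signals, stayed within the main interval or spread. Leaving out peaks of signal under 20, leaving out peaks within 200 bp of tRNA genes and adding RefSeq names were chosen after seeing the data. Without peaks near tRNA genes 28 of 102 members were bound (27.5%, against 13.7% of all genes), sec-15 being lost. Since depth is unknown, whether unbound members lie below detection was not tested.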

Other observations

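By chromosome, 7 of the 13 members with a ranked summit on V were bound (53.8%, exact 95% interval 25.1 to 80.8), where 11.8% of all genes were. On I it was 6 of 15 members (40%) against 14.3% of all genes, and on II, III, IV and X between 21.1% and 22.2% of members against 12.6% to 18.1% of all genes. The bound members on V were sec-61.G, syx-5, vha-13, vps-36, vps-37, vps-39 and vps-60. This split was looked at after the calls were known.

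Of the 73 unbound members with a ranked summit, some had a conservative peak outside the window. There were 12 with such a summit within 5000 bp of a start. The same count was not made over all unbound genes, so whether 12 of 73 is unusual cannot be told. The nearest was at snx-17, where a summit lay 980 bp from a start on the downstream side.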
